A study of Mus musculus with 2 samples.

Results

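The inhibitors of cyclin-dependent kinases (CDKs) were examined for the H3K27me3 mark in chondrocytes. Of the 7 inhibitor genes, 4 belong to the INK4 family (Cdkn2a, Cdkn2b, Cdkn2c and Cdkn2d) and 3 to the CIP/KIP family (Cdkn1a, Cdkn1b and Cdkn1c). They were picked by symbol from 21900 protein-coding genes of the mouse, and a gene was counted as marked when the deposited annotation joined a peak to it, which it did for peaks within 5 kb. Cdkn2a and Cdkn2b, neighbours on chromosome 4, were marked (2 of 7), a count near the background of 20.7% of all protein-coding genes under the same rule. The other 5 genes lay 34.9 to 479 kb from the nearest peak.

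INK4 proteins bind CDK4 and CDK6 and block their pairing with D cyclins, whereas CIP/KIP proteins bind a broader range of cyclin and CDK complexes. Both families slow entry into S phase, and several members accumulate when growth plate chondrocytes leave the cell cycle. Cdkn2a encodes a pair of unrelated proteins from different starts, p16Ink4a and p19Arf, of which the latter stabilises p53. Polycomb repressive complex 2 (PRC2) places H3K27me3, and the Cdkn2a locus is a textbook target of Polycomb repression in proliferating cells.

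The cells were primary chondrocytes of wild-type newborn CD1 mice, released from rib cartilage with collagenase and cultured overnight in DMEM with serum. The libraries comprised 1 H3K27me3 ChIP library (17237574 tags after filtering) and 1 input library of unprecipitated chromatin (17004082 tags). They were grouped by title, and their antibody tags are the other way round (the input carries the tag H3K27me3). The header of the peak file names a treatment and a control library and no antibody, so each fold enrichment is that of the treatment, taken here as the ChIP, over the control. The number of mice was not given in the sources used here, and without replicates no spread between samples or test could be given for any value. Each peak carries a fold enrichment, which is the mean ChIP coverage set against the local input background after adding 1 to both, and a mean q-value. As a check of the cell type, 0 of 6 chondrocyte genes (Col2a1, Acan, Sox9, Col9a1, Matn1 and Comp) had a peak, and the nearest peak was at least 48.2 kb away. A peak was joined to 3 of 4 muscle genes (Myod1, Myf5 and Pax7), to 3 of 3 neural genes (Neurog1, Olig2 and Sox1) and to 1 of 3 endothelial and blood genes (Ptprc). The same rule joined a peak to 20.7% of all protein-coding genes. That share lay inside the 95% Wilson intervals for the chondrocyte genes (0 to 39.0%) and for the endothelial and blood genes (6.15 to 79.2%), and below those for the muscle genes (30.1 to 95.4%) and the neural genes (43.9 to 100%). In bulk chromatin a mark on all cells at a low level and a mark on part of the cells cannot be told apart.

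The promoters of the marked and unmarked inhibitor genes are shown first, because the starts of Cdkn2a differed in whether a peak covered them. The sequences are the 250 bases before each start on GRCm38.p6, as given by RefSeq, 5′ to 3′, with every CpG dinucleotide in capitals. The upstream start of Cdkn2a, from which Arf is transcribed, lay in a gap between peaks, while the downstream start, from which Ink4a is transcribed, and the Cdkn2b start lay under a peak. Cdkn2c and Cdkn1b stand for CpG-rich promoters of unmarked genes.
Cdkn2a upstream start (chr4:89294620-89294869, minus strand): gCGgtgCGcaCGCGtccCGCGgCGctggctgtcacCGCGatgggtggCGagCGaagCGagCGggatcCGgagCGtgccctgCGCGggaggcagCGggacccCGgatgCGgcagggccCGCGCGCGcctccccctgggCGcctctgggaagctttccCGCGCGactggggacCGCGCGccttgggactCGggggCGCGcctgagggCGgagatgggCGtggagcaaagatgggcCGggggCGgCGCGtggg
Cdkn2a downstream start (chr4:89282193-89282442, minus strand): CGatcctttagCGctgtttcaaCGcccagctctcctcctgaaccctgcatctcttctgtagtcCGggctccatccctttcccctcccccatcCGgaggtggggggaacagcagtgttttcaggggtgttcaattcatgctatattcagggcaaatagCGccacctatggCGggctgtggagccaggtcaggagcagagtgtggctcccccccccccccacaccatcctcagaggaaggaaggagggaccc
Cdkn2b (chr4:89311033-89311282, minus strand): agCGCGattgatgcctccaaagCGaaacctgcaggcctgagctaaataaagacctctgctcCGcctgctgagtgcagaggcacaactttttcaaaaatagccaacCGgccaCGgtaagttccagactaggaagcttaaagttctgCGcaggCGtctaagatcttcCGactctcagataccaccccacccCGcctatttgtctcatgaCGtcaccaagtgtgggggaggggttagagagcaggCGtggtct
Cdkn2c upstream start (chr4:109666757-109667006, minus strand): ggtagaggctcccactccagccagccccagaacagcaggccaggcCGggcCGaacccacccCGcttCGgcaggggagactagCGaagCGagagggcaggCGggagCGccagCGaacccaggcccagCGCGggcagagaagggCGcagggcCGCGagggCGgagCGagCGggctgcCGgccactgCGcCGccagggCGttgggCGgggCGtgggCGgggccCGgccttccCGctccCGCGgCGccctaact
Cdkn1b (chr6:134920151-134920400, plus strand): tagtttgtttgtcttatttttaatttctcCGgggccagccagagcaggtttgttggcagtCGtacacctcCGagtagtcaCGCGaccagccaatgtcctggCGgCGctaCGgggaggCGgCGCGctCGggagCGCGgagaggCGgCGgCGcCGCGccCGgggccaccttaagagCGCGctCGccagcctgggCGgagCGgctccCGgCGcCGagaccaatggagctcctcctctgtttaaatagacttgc

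The count over the family was compared with the background of the same rule. A peak was joined to 2 of 7 inhibitor genes (28.6%, 95% Wilson interval 8.22 to 64.1%), against 20.7% of all protein-coding genes, so the number of marked inhibitors was near the background. Among the 11901 protein-coding genes no longer than Cdkn2a (20.1 kb) the background was 17.8%. The count stayed at 2 of 7 with peaks up to a q-value of 0.01 (5.9% of all protein-coding genes), with peaks at least 3.5-fold enriched (5.35%), with overlap of the gene body (15.3%), with a peak over any start (3.73%) and with a reach of 10 kb (26.5%) or 20 kb (32.9%). With a peak over the 5′ end of the gene (4.77%) it was 1 of 7. By family, 2 of 4 INK4 genes and 0 of 3 CIP/KIP genes were marked. The Wilson interval treats the 7 genes as independent, but both marked genes are neighbours at a single locus. Each was overlapped by a peak of its own, and the peak over Cdkn2b was also joined to Cdkn2a, 940 bp away. The extent of the mark was then measured. Peaks covered 97.0% of Cdkn2a and all 4744 bp of Cdkn2b, while at least 95% of the gene was under peaks in 0.9% of protein-coding genes and in 5.87% of the 3356 with a peak over the gene body. Such cover was also found outside the family, as the neural genes Olig2 (under a peak of 43.6 kb, 3.66-fold) and Neurog1 (under a peak of 20.7 kb, 3.62-fold) lay wholly under peaks.

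The map of the Cdkn2a and Cdkn2b locus showed a near-continuous cover. Both genes lie on the minus strand and are transcribed towards falling coordinates, Cdkn2a at 89274473 to 89294619 and Cdkn2b at 89306289 to 89311032, 11.7 kb apart. A peak of 29.5 kb (89264468 to 89294009) ran from 10.0 kb past the 3′ end of Cdkn2a to just short of its upstream start. It was 3.64-fold enriched over input, with a pileup (mean ChIP coverage) of 13.35 fragments and a mean q-value of 0.00408. The neighbouring peak, 20.7 kb wide (89295559 to 89316225), held all of Cdkn2b and the intergenic stretch except its part in the gap next to Cdkn2a and was 3.66-fold enriched (pileup 13.29, q-value 0.00420). The wide peaks on both genes therefore had almost equal enrichment.

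These peaks stood near the top of the list in width and within the upper part in strength. The peak over Cdkn2a was number 63 by width of 19359 peaks, and the peak over Cdkn2b was number 153. Their fold enrichments exceeded those of 96.3% and 96.7% of all peaks, where the median was 3.16. Among the 670 peaks of 10 kb or more, which had a median of 3.497, they exceeded 82.5% and 85.7%. The background that MACS set against them, computed back from the fold enrichment, was 2.94 and 2.91 fragments. It is the larger of the local input and a genome-wide level of 2.67, so it could not fall below the latter and is no measure of the input at the locus. At a modelled fragment length of 294 bp the pileups correspond to about 1341 ChIP fragments over an expected 295 from background at Cdkn2a, and to 934 over 204 at Cdkn2b. Fragments of 1 library give no measure of variation between mice.

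**Figure D1:**
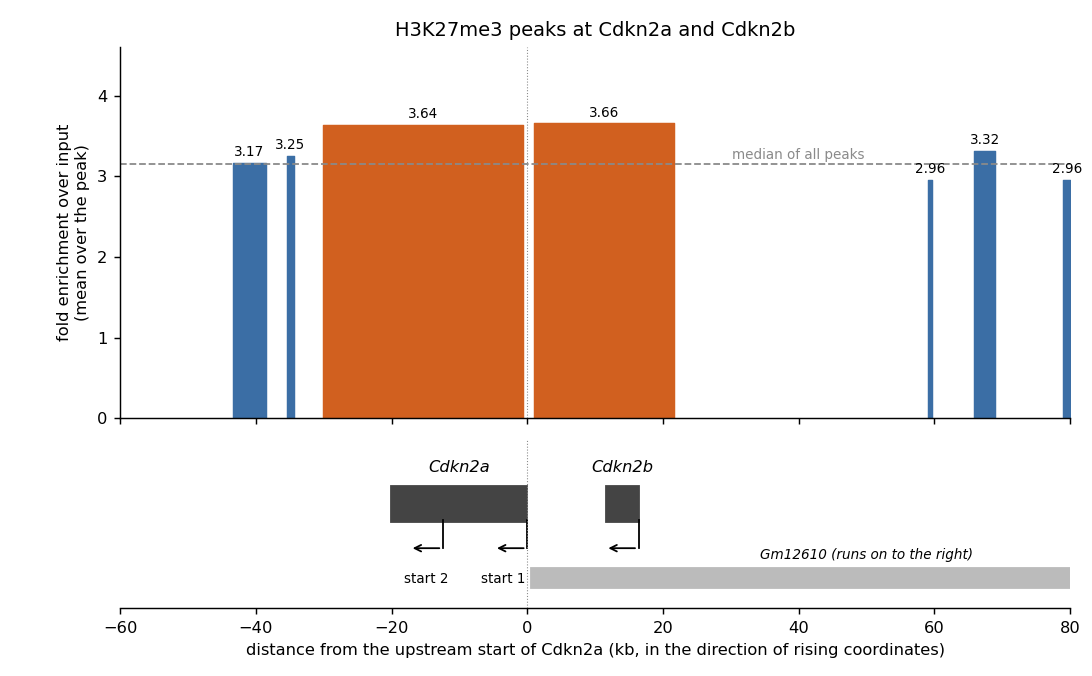
Peaks at Cdkn2a and Cdkn2b, with the distance from the upstream start of Cdkn2a in kb on the x axis and the fold enrichment over input (mean over each peak) on the y axis. Orange bars are the peaks of 29.5 and 20.7 kb, blue bars are other peaks, the dashed line is the median of all peaks (3.16), and arrows below mark the starts and direction of transcription (start 1 is upstream, start 2 downstream). The upstream start falls in the gap between the orange bars.

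The starts of Cdkn2a differed in their position relative to the peaks. The upstream start (89294619) lay 610 bp beyond the end of the first wide peak and 940 bp before the second, inside a gap of 1549 bp (89294010 to 89295558). The downstream start (89282192), 12.4 kb away, lay under the first wide peak, 11817 bp from the end that faces the gap. The Cdkn2b start (89311032) lay under the second wide peak, 5.19 kb from its end. Of the span from the 3′ end of Cdkn2a to the start of Cdkn2b, 36.6 kb in length, 95.8% was under peaks, and this gap was all that was not.

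The gap at the Arf start was a narrow one. Of 19339 gaps between neighbouring peaks of a chromosome, 2625 were no wider, the median was 6.76 kb and the smallest was 1177 bp. That smallest value is 1 bp more than 4 fragment lengths (1176 bp), and the gap at Arf exceeded 4 fragment lengths by 373 bp. The coverage inside the gap is not part of a peak list, so the data do not say how far the mark fell there.

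A tail of weaker peaks extended the domain past Cdkn2a. Peaks of 4.76 kb (89251305 to 89256068, 3.17-fold, q-value 0.0365) and 1115 bp (89259143 to 89260257, 3.25-fold, q-value 0.0223) lay inside Gm12606, a gene that the deposited annotation places past the 3′ end of Cdkn2a and into which the first wide peak also reached. Joined across gaps of up to 5 kb, the 4 peaks formed a domain of 64.9 kb, of which 86.4% was under peaks. It was number 76 by length of 10770 such domains. Of the 4 peaks, only the 2 wide ones had mean q-values no higher than 0.01, a limit under which 5.9% of protein-coding genes kept a peak.

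The domain did not reach Mtap, which encodes methylthioadenosine phosphorylase. No peak lay in the 70.2 kb between the domain and Mtap (89137370 to 89181090), and 0 bp of Mtap was under a peak. Mtap counts as marked in the annotation through a peak of 598 bp lying 4.11 kb away, on the side turned from Cdkn2a (2.96-fold, q-value 0.0763). On the other side, beyond Cdkn2b, 37.4 kb without a peak were followed by 21 scattered peaks on the way to Dmrta1, a gene of the doublesex family 377 kb from Cdkn2b. They covered 10.1% of that stretch with a median width of 898 bp, and 11 of them had a q-value over 0.05. The widest, of 12.1 kb (89517748 to 89529878, 3.65-fold, q-value 0.00466), lay 207 kb from the Cdkn2b start and was about as enriched as the peaks on both inhibitor genes. The long non-coding gene Gm12610 (89295180 to 89518621) has its lower end in the gap at Arf and spans Cdkn2b.

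**Figure D2:**
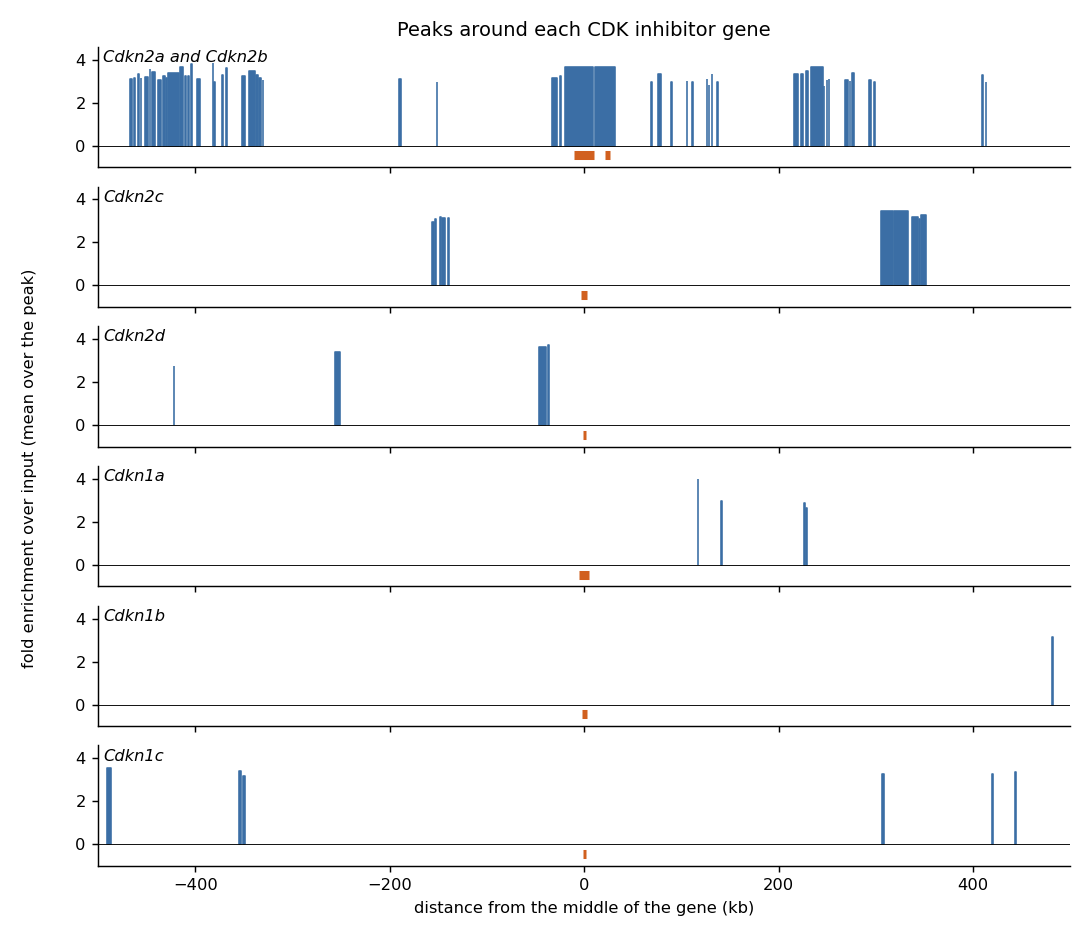
Peaks within 500 kb of the middle of each inhibitor gene, with the distance in kb on the x axis and the fold enrichment over input on the y axis. Blue bars are peaks (the narrowest drawn at line width) and orange bars are the genes, with Cdkn2a and Cdkn2b in the top panel. A bar stands over an orange gene in the top panel only.

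Neighbourhoods of the inhibitor genes differed in how much mark they held. Within 500 kb of Cdkn2a there were 54 peaks over 14.8% of the sequence, against 2.51% of the effective genome size for the whole list. The window of Cdkn2c held 10 peaks (4.50%), that of Cdkn1c 6 peaks (1.35%), that of Cdkn2d 4 peaks (1.40%) and that of Cdkn1a 4 peaks (0.283%). Around Cdkn1b there was 1 peak in 1005 kb (0.121%). The neighbourhood of Cdkn2a was thus above the genome-wide share, as was that of Cdkn2c, and those of Cdkn2d and the CIP/KIP genes were below it. Of the 151 kb under peaks around Cdkn2a, 56.1 kb belonged to the domain over Cdkn2a and Cdkn2b itself. The contrast with the unmarked genes is therefore partly built in, and the share without the domain was not computed. Of the protein-coding genes in these windows, 8 of 23 were marked around Cdkn2a and 8 of 12 around Cdkn2b, whose windows largely overlap. The counts were 2 of 9 around Cdkn2c, 6 of 37 around Cdkn2d, 2 of 23 around Cdkn1a, 0 of 17 around Cdkn1b and 3 of 20 around Cdkn1c, beside the background of 20.7%. Each window counts its own inhibitor gene, and those of Cdkn2a and Cdkn2b count both marked genes. The counts are therefore partly fixed by the marks on the inhibitor genes themselves.

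Among the unmarked INK4 genes, Cdkn2d (p19Ink4d, chromosome 9, 21288459 to 21291421) lay nearest to a peak. The distance was 34.9 kb, and the peak of 789 bp (3.72-fold, q-value 0.00283) belonged to S1pr5, a sphingosine-1-phosphate receptor gene. Its neighbours Kri1 and Ap1m2, 489 bp and 3.19 kb away, were not marked. Cdkn2c (p18Ink4c, chromosome 4, 109660876 to 109666756) shares the chromosome with the marked locus. Its nearest peak lay 136 kb away, was 1216 bp wide (3.16-fold, q-value 0.0245) and belonged to 4930522H14Rik. The neighbour Faf1, 9.87 kb from Cdkn2c, was not marked.

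The distances of the CIP/KIP genes ran from 112 to 479 kb. Cdkn1a (p21, a target of p53, chromosome 17, 29090979 to 29100722) had its nearest peak at 112 kb inside the copine gene Cpne5, 307 bp wide and 4.004-fold enriched (q-value 0.00118). The narrowest peak of the whole list was 294 bp. Cdkn1c (p57, an imprinted inhibitor expressed in differentiating chondrocytes, chromosome 7, 143458339 to 143461059) had its nearest peak at 305 kb, 2696 bp wide and 3.28-fold enriched, at Mrgprg. Cdkn1b (p27, chromosome 6, 134920401 to 134925525) was the most remote at 479 kb, from a peak of 1217 bp (3.16-fold, q-value 0.0468) without a gene. Srsf3 and Rab44 beside Cdkn1a and Gpr19 and Apold1 beside Cdkn1b were not marked either.

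Set against all genes, with a median distance of 64.6 kb, Cdkn2d was the only unmarked inhibitor gene nearer to a peak than the median. Among 21631 protein-coding genes on chromosomes with peaks, 40.5% lay nearer to a peak than Cdkn2d, 59.6% nearer than Cdkn1a and 63.3% nearer than Cdkn2c. For Cdkn1c the share was 78.1% and for Cdkn1b 84.5%. The median distance of the 5 unmarked inhibitor genes was 136 kb and that of all unmarked protein-coding genes 117 kb. The lowest pileup in the list was 9.86 fragments, so a weaker mark on these genes was not detectable at this depth.

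**Figure D3:**
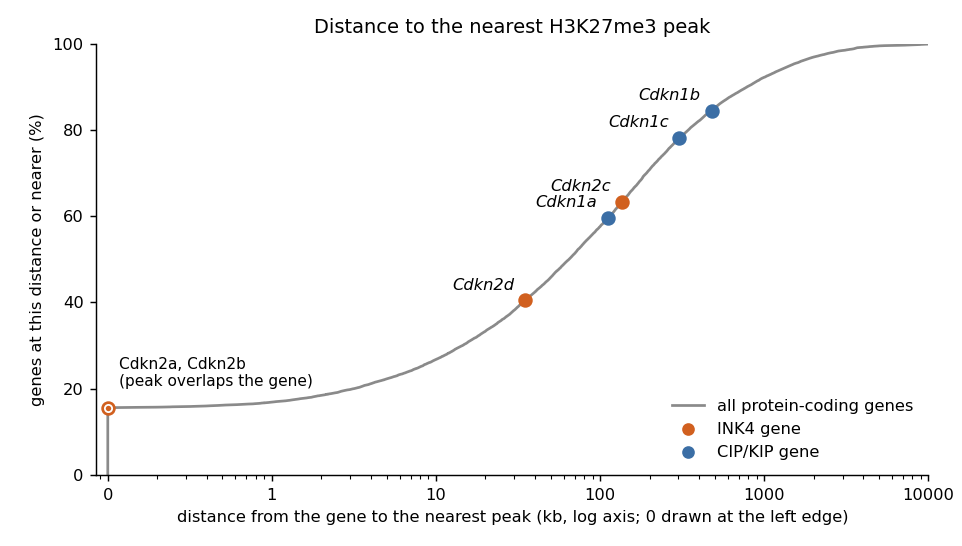
Cumulative share of protein-coding genes (y axis, %) by distance to the nearest peak (x axis, kb, log axis with 0 at the left edge). The grey line holds 21631 genes, orange points are INK4 genes and blue points CIP/KIP genes. Cdkn2a and Cdkn2b sit at 0 and the other 5 genes between 34.9 and 479 kb.

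**Figure D4:**
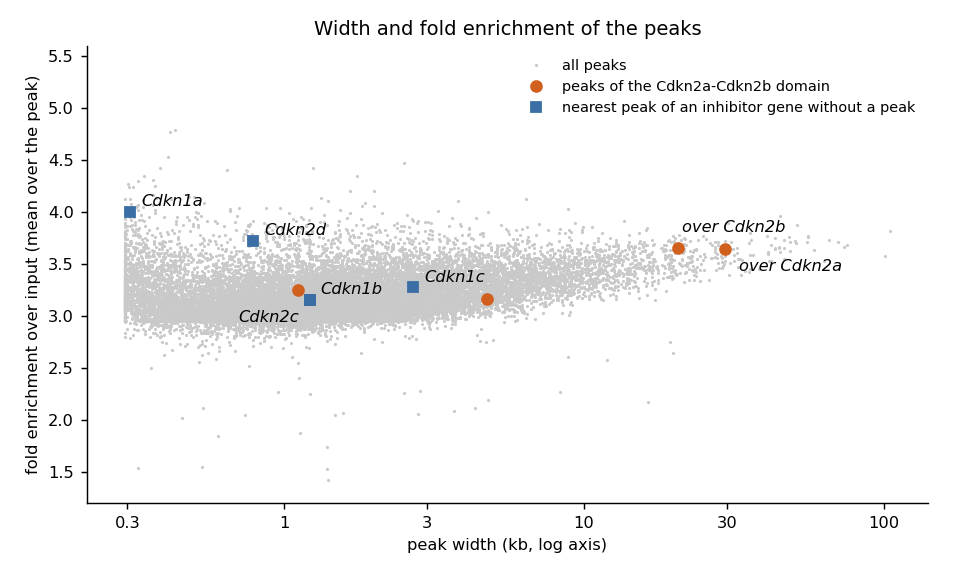
Width (x axis, kb, log axis) and fold enrichment over input (y axis) of all 19359 peaks in grey. Orange circles are the 4 peaks of the Cdkn2a and Cdkn2b domain, and blue squares are the nearest peaks of the 5 unmarked inhibitor genes. The peaks over Cdkn2a and Cdkn2b are far wider than the blue squares, while those nearest to Cdkn1a and Cdkn2d are narrow peaks of higher fold enrichment (4.004 and 3.72).

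Base composition of the promoters, which the choice of genes did not use, was then compared. RefSeq windows of 300 bases (250 before and 50 after the start) were at hand for 9 starts of 6 inhibitor genes, with none for Cdkn1c. A peak covered 2 of the 9 starts, against 4.58% of 32851 windows in all. The upstream start of Cdkn2a had the richest window of the family, with 77.0% G and C and 45 CpG (more CpG than 98.1% of all windows). The downstream start, under a peak, had 60.3% and 12 CpG, and Cdkn2b had 57.7% and 18 CpG. The CpG-rich windows of unmarked genes were those of Cdkn2c (upstream start, 33 CpG), Cdkn1b (30), Cdkn1a (downstream start, 23) and Cdkn2d (22). Both covered starts thus had fewer CpG than the uncovered Arf start and than these 4 windows, but more than the upstream start of Cdkn1a (2) and the downstream start of Cdkn2c (8).

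Starts covered by a peak were then counted by CpG number over all promoters. Starts in windows with 10 to under 20 CpG were under a peak in 8.06% of cases, against 4.73% with 20 to under 30, 2.97% with 30 or more and 3.82% with under 10. The part of base composition in the gap at Arf was not tested. The GC box (GGGCGG on the shown strand or CCGCCC for the other) occurred in 7 of the 9 inhibitor windows and in 35.7% of all windows. Cdkn2d held 5, the upstream starts of Cdkn2c and Cdkn2a held 4 and 3, and the starts under a peak held 1 each. TATAAA (or TTTATA for the other strand) was found in 0 of the 9 and in 13.6% of all windows.

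**Figure D5:**
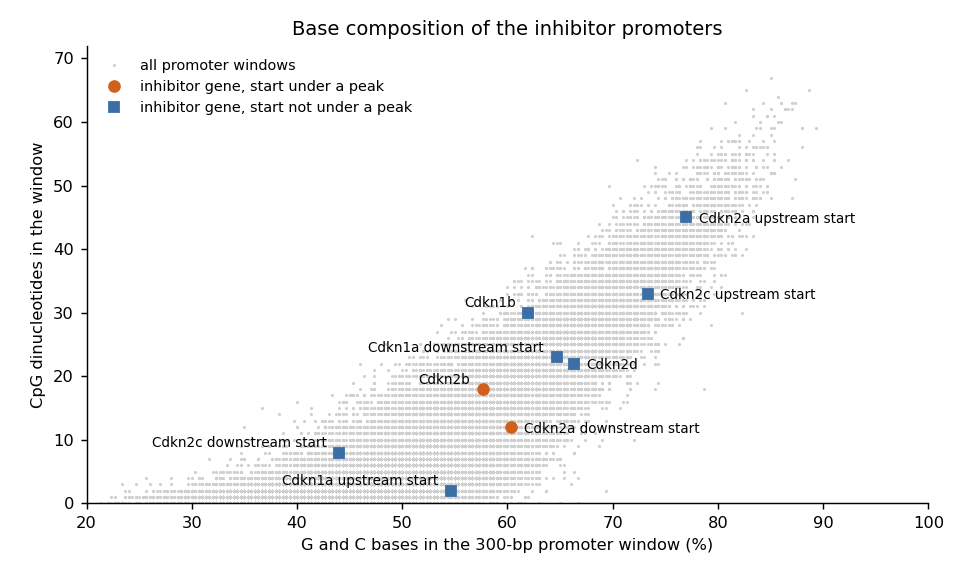
Share of G and C bases (x axis, %) and number of CpG dinucleotides (y axis) in promoter windows of 300 bases. Grey points are all 32851 windows, orange circles are inhibitor starts under a peak and blue squares are inhibitor starts outside peaks. The upstream start of Cdkn2a lies at the upper right (77.0%, 45 CpG), above both orange circles.

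The genes of the proteins that the inhibitors act on or through were examined next. In a list of 41 cell cycle genes, 5 were marked (12.2%, 5.32 to 25.5%), and the background of 20.7% lay inside that interval. Among 15 cyclins and CDKs, these were Ccna1, Cdk4 and Cdk6. Ccna1, the germline A-type cyclin, had 3 peaks, and the widest (6.47 kb, 3.47-fold, q-value 0.0108) covered its start. Cdk6, a kinase that INK4 proteins inhibit, had a peak of 8.34 kb before the gene (3.52-fold, q-value 0.00147) and a weak one inside. Cdk4, the partner kinase, was marked only through a peak of 1.23 kb lying 1.62 kb upstream (2.96-fold, q-value 0.0934). The D cyclins had no annotated peak. Ccnd2 had a peak 3.94 kb away by the gene table, Ccnd1 17.8 kb and Ccnd3 38.2 kb.

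Downstream of these kinases, 0 of 11 pocket protein and E2F genes were marked (0 to 25.9%, an interval that holds the background of 20.7%), with distances of 7.71 kb (E2f7) to 255 kb (E2f5). Rb1, the main substrate of CDK4 and CDK6, lay 87.1 kb from a peak. In the p53 arm, Trp53 (195 kb) and Mdm2 (661 kb), the target of p19Arf, were not marked. Trp73, a relative of p53 with roles in neural development, had 12 peaks over 51.5 kb that covered both of its starts. Its peaks summed to about as much as the wide pair at Cdkn2a and Cdkn2b (50.2 kb), but the widest was 12.8 kb (3.28-fold). Skp2, Cks1b and Fbxw7, which control the turnover of p27 and of cyclin E, had no peak. Of 7 other growth brakes, 1 was marked (14.3%, 2.57 to 51.3%, which also holds the background). This was Gadd45g, joined through a peak of 1.94 kb lying 4.39 kb upstream (3.34-fold, q-value 0.0158).

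Among 11 known regulators of Cdkn2a, 6 were marked (54.5%, 28.0 to 78.7%), against 20.7% of all protein-coding genes. With overlap of the gene body it was 5 of 11 (Bmi1, Cbx7, Cbx8, Tbx2 and Ets1), against 15.3%. Of the 6, only Cbx8 and Tbx2 had a peak with a q-value up to 0.01 (5.9% of all protein-coding genes). None of the 6 had a RefSeq start under a peak (3.73%), though no start was at hand for Tbx2 and Tbx3. The Polycomb gene Cbx8 was joined to 4 peaks, and the widest (6.41 kb) was 4.12-fold enriched (q-value 0.000351). That peak (119045688 to 119052092) lay upstream of the gene (119036303 to 119040913) without overlapping it. Tbx2, a T-box repressor, had 12.1 kb of peaks over and before the gene, with q-values up to 0.00361. Bmi1 had 9.33 kb in 4 peaks and Cbx7 2.51 kb in 3 narrow ones. Twist1 was flanked by 15.0 kb of peaks that did not overlap the gene, and Tbx3 was joined to a peak of 448 bp lying 3.37 kb upstream. The activators Ets1, Ets2 and Dmtf1, the Polycomb E3 ligase gene Rnf2 and the repressor Id1 had no annotated peak. Ets1 is overlapped by a peak at its position in the gene table.

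Cdkn1c lies in an imprinted region, and the genes around it were examined in the same way. Of 13 such genes, 4 were marked (30.8%, 12.7 to 57.6%), namely Kcnq1, Ascl2, Igf2 and Th. The background of 20.7% lay inside that interval. Ascl2, a trophoblast transcription factor gene, had a peak of 4.33 kb over its start (3.57-fold, q-value 0.00617). Kcnq1, the neighbour of Cdkn1c, had 4.55 kb in 2 peaks, of which the wider (2.41 kb, 3.40-fold) lay just upstream of the gene, on the side away from Cdkn1c. Kcnq1ot1, the non-coding RNA that silences the cluster on the paternal copy, lay 102 kb from a peak, and Slc22a18 and Phlda2 on the other side of Cdkn1c 266 and 263 kb. A peak list cannot tell the parental copies apart.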

How the data were processed

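Per the submitters' processing notes, base calling used CASAVA 1.8.4, alignment Bowtie2 and the build mm10. Per the file headers, the authors called peaks with MACS 2.1.0.20140616 in broad mode, treatment against control, taken here as ChIP against input. Trimmed reads without duplicates were used, with a fragment length of 294 bp and the larger library scaled to the smaller. The q-value cutoff was 0.05, but 39.2% of all peaks had a mean q-value above it. A peak in the list therefore need not have a mean q-value within that cutoff. The deposited values are pileup (a coverage signal), fold enrichment (a ratio) and −log10 p-values and q-values, each averaged over a peak. The authors joined peaks to Ensembl genes within 5 kb, with a tool not given in the sources used here. Of the peaks, 19359 of 19359 were identical in both deposited tables.

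Peaks were counted by name, combined symbols were split, and 4781 of 4987 symbols were found in the RefSeq gene table (GRCm38.p6), with 148 more found as an older name. Gene positions came from that table and strands from the RefSeq promoter table or the annotation. No strand was at hand for Cdkn1c. Distances, cover, gaps and domains (peaks joined within 5 kb) were computed in Python 3.11.15 with pandas 2.3.3 and SciPy 1.17.1, and the interval code was tested on simulated data. Wilson intervals cover counting error only. No test across genes was run, since each group held 1 library. Genes were named by rule: the 7 inhibitors, their nearest neighbours, the genes under the domain, and list genes with a peak or that the inhibitors act on. The members and lists were chosen with earlier results of these data known, and the promoter comparison across CpG classes was added after seeing the data. Alternatives covered thresholds on peaks, assignment to genes, window and joining distance.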

Additional observations from a re-analysis of the deposited data

How the results depend on the processing

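Over 13 results, 80 values were recomputed under alternatives, of which 63 stayed within 1.5 times the value reported and 17 moved. Assignment within 5 kb of the gene table and cover of any start in the promoter table were added after seeing the data. The marked genes were 2 of the 7 under each threshold on peaks and each assignment but cover of the 5′ end of the gene, which left 1 gene (Cdkn2b) in the family of 7 and 1 among the INK4 genes, because the 5′ end of Cdkn2a is the start in the gap. The CIP/KIP count was 0 under every alternative listed. The share of the cell cycle list moved under the largest number of settings. It was 4.88% for peaks limited to q-values up to 0.01 (5.9% of all protein-coding genes), for those at least 3.5-fold enriched (5.35%), with cover of the 5′ end (4.77%) and with cover of any start (3.73%), 7.32% with overlap of the gene body (15.3%), 24.4% within 10 kb (26.5%) and 31.7% within 20 kb (32.9%), as narrower or wider rules must give. The covered share of the span of both genes was 41.9% with 50 kb added on each side, and the domain was 29.5 kb when peaks were joined within 1 kb only. The nearest peak moved to 302 kb (q-value of at most 0.01) or 3181 kb (fold enrichment of at least 3.5) for Cdkn2c, to 1250 kb under both for Cdkn1b and to 485 kb under both for Cdkn1c, since fewer peaks were left. No paired analysis was possible because the ChIP and the input were sequenced as 1 library each, and no library could be left out. The lowest pileup called (9.86 fragments) limits what counts as unmarked, and 39.2% of all peaks had a mean q-value over 0.05.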
